A study of Mus musculus with 36 samples.

Results

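Replication-dependent histone genes encode the core histones H2A, H2B, H3 and H4 and the linker histone H1 that package newly copied DNA. In the mouse these genes carry the symbols Hist1h to Hist4h, and every gene listed under such a symbol in lung RNA of mice dosed with Deepwater Horizon oil or Corexit dispersants was taken here. There were 53 of them among 18691 gene names listed in the tables of female or male mice, with 50 in the female table, 40 in the male table and 37 in both. By protein, 4 encoded H1, 14 H2A, 12 H2B, 12 H3 and 11 H4. Another 17 annotated mouse genes carry such symbols and were not analysed here. On the GRCm38 build 40 of the 53 lie on chromosome 13, 9 on chromosome 3, 3 on chromosome 11 and 1 on chromosome 6.

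The tables came from 36 wild-type C57BL/6 mice, 8 weeks old at the start, with 3 females and 3 males in each of 6 groups. The airways were dosed on days 0, 7 and 13 with saline in the control group, with oil alone, with a dispersant alone (Corexit 9500 or Corexit 9527), or with a dispersant and oil together (9500+oil or 9527+oil), each at a 0.1 dilution of the accommodated fraction, and the left lung was taken on day 14. The saline mice were the controls of all 5 treatments, so that the comparisons share them. Female and male mice were dosed and tabulated separately, so sex and experiment cannot be told apart. The records name intratracheal instillation and a water-accommodated fraction, while the methods name oropharyngeal aspiration and a saline-accommodated fraction. Markers of lung cells were present throughout, though not at an even level. The 6 alveolar type 2 markers summed to between 20400 and 20600 counts per 1000000 (CPM) in male saline mice. In female saline mice they summed to between 9210 and 20300 CPM. Since the samples are whole lung, fewer cells of a type and less RNA per cell cannot be told apart.

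Most messengers of these genes do not end in a poly(A) tail. They end just after a short stem-loop that is bound by the stem-loop binding protein Slbp, and they accumulate during S phase, when DNA is copied, and are destroyed when it ends. A few of the genes can also give longer, polyadenylated messengers, which are known from cells that have stopped dividing. The libraries were made by poly(A) selection, so the counts below can be read only as the polyadenylated messengers of these genes and not as their whole output.

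The stem-loop is shown here because the annotated transcripts of the members differ in how far they run past it. Each line gives the 16 bases of the stem-loop in capitals with 5 flanking bases in lower case, written as DNA in the 5′ to 3′ direction of the gene and read from the annotated GENCODE M21 transcripts (GRCm38).
Hist1h1c, chr13:23739512-23739527, plus strand: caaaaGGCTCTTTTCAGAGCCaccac
Hist3h2a, chr11:58955172-58955187, plus strand: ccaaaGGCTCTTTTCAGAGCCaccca
Hist2h2aa2, chr3:96239784-96239799, minus strand: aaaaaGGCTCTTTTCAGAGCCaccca
Hist1h2be, chr13:23585531-23585546, minus strand: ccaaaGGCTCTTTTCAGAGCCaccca
Hist2h3c1, chr3:96247327-96247342, plus strand: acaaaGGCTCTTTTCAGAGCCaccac
Hist1h4n, chr13:21831798-21831813, minus strand: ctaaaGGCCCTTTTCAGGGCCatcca
Hist2h4, chr3:96262939-96262954, minus strand: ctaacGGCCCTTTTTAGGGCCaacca

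A 3′ untranslated region was annotated for 45 members, and 37 of these held a stem-loop between 21 and 58 bases after the stop codon. The form seen in Hist1h1c was shared by 21 members of H1, H2A, H2B and H3, and the form seen in Hist1h4n by 5 members, all of H4. In 16 members the annotated transcript ran on for at most 100 bases after the stem-loop, and in 21 it ran on for more than 100 bases, for instance 1861 bases in Hist1h2be, 1643 bases in Hist3h2a and 4884 bases in Hist1h1d, the longest. No stem-loop was found in 8 members with an annotated 3′ region, among them Hist1h2bc (chr13:23684199-23692908) and Hist2h2be (chr3:96221119-96223738). In each gene only the longest coding transcript was searched, for a fixed pattern with a fully paired stem. A stem-loop of another form or in a shorter transcript would have been missed, so these genes may still carry one. Of 46 members with a RefSeq promoter on GRCm38.p6 (250 bases before to 50 bases after the start), 39 held the letters CCAAT on either strand (84.8%, against 37.4% of all 32851 promoters) and 25 held TATAAA (54.3%, against 13.6%). The CCAAT letters were in every promoter read for H1, H2A, H2B and H3 and in 3 of 10 for H4.

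The libraries held 17501180 to 30011557 counts each, of which 1587 to 4370 fell on the 53 genes, and intervals on such counts would cover counting error only. In 4 female libraries over 20% of counts came from mitochondrial genes: saline mouse 3 (45.09%), Corexit 9527 mouse 11 (38.38%), oil mouse 6 (22.56%) and 9500+oil mouse 14 (20.67%). This share was between 6.16% and 11.34% in the remaining 14 females and between 5.27% and 7.68% in males. These 4 libraries stood apart in the histone genes too, as described below, and the main female results are also given without them. Leaving them out takes a mouse from the female saline, oil, Corexit 9527 and 9500+oil groups, so those fits rest on fewer mice.

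A small number of genes carried most of the signal. Levels are given as CPM on TMM-adjusted library sizes. Hist1h2bc, which encodes H2B, took 35.5% of all histone counts in the female table and 37% in the male table. Hist1h1c, a linker histone H1 gene, took 16.9% and 19.7%. Next in mean CPM came Hist2h2be (H2B), Hist3h2a (H2A), Hist2h3c1 (H3), Hist2h2aa2 and Hist2h2aa1 (both H2A) and Hist1h2be (H2B). This order is over all 36 mice and rests in part on the mitochondria-rich libraries. In the 14 other females mean CPM was 32.2 for Hist1h2bc, 19.6 for Hist1h1c, 10.5 for Hist2h2aa2, 10.4 for Hist3h2a, 8.36 for Hist2h2be and 3.95 for Hist2h3c1. Scaled to transcript length, Hist1h2bc again led, with 38 CPM per kilobase in females and 45.9 in males. The order of the next genes differed between the sexes. In females Hist2h2aa2 had 15.4, Hist1h1c 10.4 and Hist2h2aa1 2.97 CPM per kilobase. In males Hist1h1c had 18.1 and both Hist2h2aa1 and Hist2h2aa2 15.3 CPM per kilobase. The split of counts between Hist2h2aa1 and Hist2h2aa2 is uncertain, as described below, and so is this order. The female values include the mitochondria-rich libraries. The H2B genes together held 49.7% of the histone counts in females and 48% in males, and the H4 genes 3.21% and 3.39%. In the 14 other females the shares were 44.7% for H2B and 3.9% for H4.

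Members in which no stem-loop was found, those with no annotated 3′ region included, held 47.5% of the histone counts in the female table and 45.4% in the male table. Those with a long annotated end after the stem-loop held 40.7% and 40.9%. The members that end within 100 bases of it held 11.8% and 13.7%, and Hist2h2aa1 and Hist2h2aa2 made up most of that. In the 14 other females these 3 shares were 42.4%, 43.3% and 14.3%. Below these, 29 members of the female table and 20 of the male table did not reach the minimum for testing, with between 10 and 112 counts summed over the 18 females and between 10 and 90 over the 18 males. Those below the minimum in females were 2 H1, 8 H2A, 6 H2B, 8 H3 and 5 H4 genes. This left 21 members tested in females and 20 in males when all 6 groups were fitted together.

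**Figure D1:**
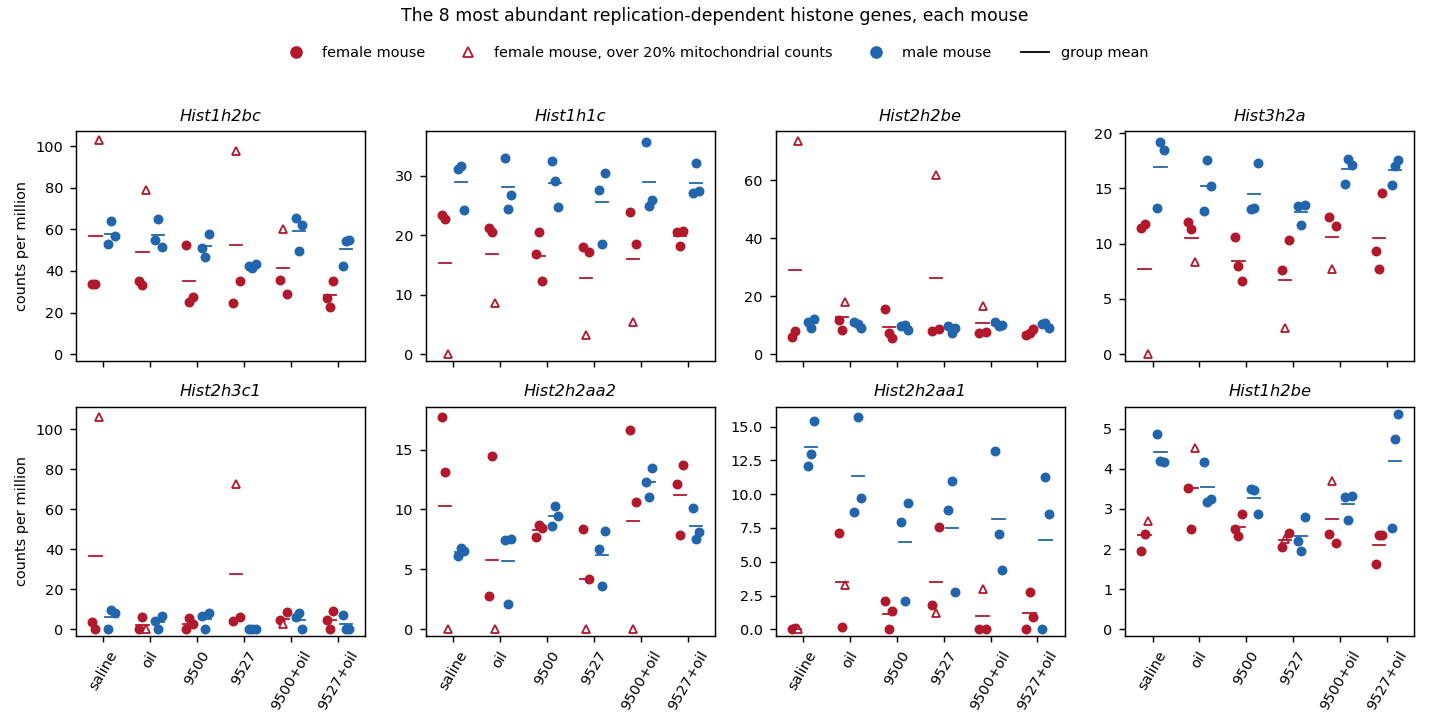
The level in CPM (y axis) of the 8 most abundant members in each mouse, by treatment (x axis), with females in red, males in blue, the 4 female libraries over 20% mitochondrial counts as open triangles and group means of the 3 mice as lines. Hist1h2bc in males sits between 41.5 and 43.3 after Corexit 9527 and between 52.7 and 63.8 after saline, and the open triangles lie outside the range of the other females in Hist1h2bc, Hist1h1c, Hist2h2be and Hist2h2aa2, by little for 2 of them in Hist2h2be (16.8 and 17.9 against at most 15.7).

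The histone pattern of the 4 mitochondria-rich female libraries differed from that of the other 14 in opposite directions for different members. Hist1h2bc was 60 to 103 CPM in the 4 libraries and 22.8 to 52.3 CPM in the other 14. Hist2h2be was 16.8 to 73.5 CPM in the 4 libraries against 5.65 to 15.7 CPM. Hist1h1c was 0 to 8.69 CPM against 12.4 to 24 CPM. Hist2h2aa2 had no count in any of the 4 libraries and 2.76 to 17.7 CPM in the others. In these 4 members the ranges did not overlap. Of the 21 members tested in females, 2 lay above the other libraries in all 4, 6 lay below and 13 overlapped. The other members below were the H4 genes Hist1h4d, Hist1h4i, Hist1h4n and Hist2h4. Hist2h3c1 summed with Gm20634, a gene that shares its sequence, also lay above, with 23.4 to 107 CPM in the 4 libraries against 2.59 to 9.65 CPM.

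By family, the H2B sum was higher in the 4 libraries (82.2 to 179 against 33.3 to 70.5 CPM), and the sums of H1 (3.72 to 10.5 against 13.4 to 25.5 CPM), H2A (2.34 to 11.6 against 17.7 to 29.9 CPM) and H4 (0 to 0.925 against 2.03 to 11.4 CPM) were lower. The H3 sum overlapped (2.23 to 106 against 0 to 13.6 CPM). The members that end within 100 bases of the stem-loop summed to 0.234 to 3.5 CPM in the 4 libraries and 10.6 to 20 CPM in the others, and those in which none was found to 78.5 to 176 against 30.8 to 68 CPM. Markers of 3 cell types were also lower in all 4 libraries. The erythroid markers (7 of 8 in the table) summed to 363 to 1030 CPM against 2970 to 9190 CPM. The ciliated cell markers summed to 270 to 330 against 370 to 592 CPM. The plasma cell markers (3 of 4 in the table) summed to 73.2 to 136 against 160 to 246 CPM. The part of the mitochondrial share or of these cells in the histone pattern was not tested.

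**Figure D2:**
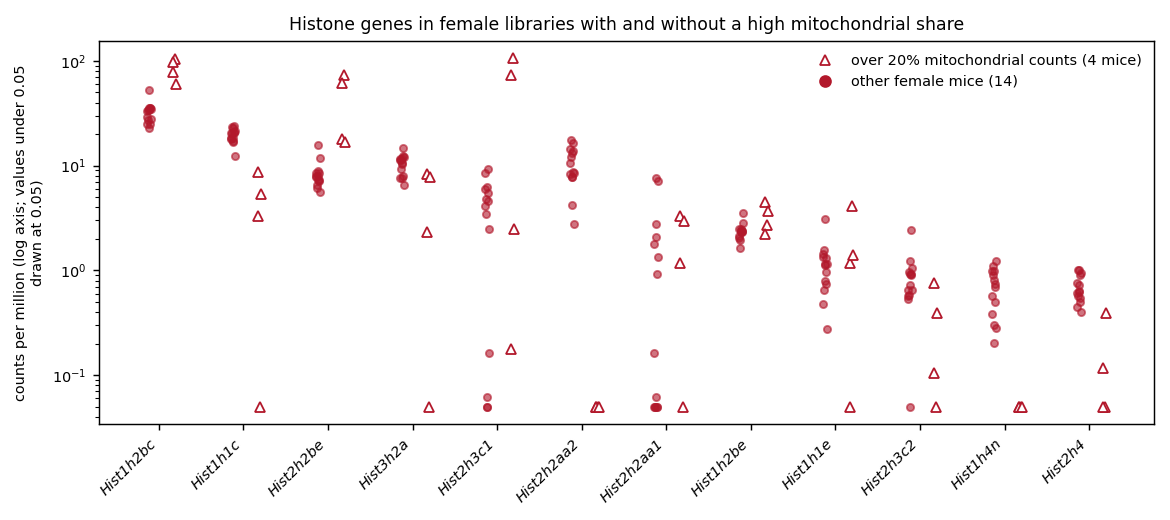
Levels in CPM (log y axis, values under 0.05 drawn at 0.05) of 12 histone genes in the 18 female mice, with the 4 libraries over 20% mitochondrial counts as open triangles and the other 14 as filled points. The triangles lie above the points for Hist1h2bc and Hist2h2be and below them for Hist1h1c, Hist2h2aa2 and Hist1h4n.

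Several members share nearly all of their sequence with another gene, and the estimated counts of such copies varied widely from mouse to mouse. Measured in stretches of 31 bases, 31 of the 53 members shared over 50% of their sequence with another gene. Hist2h2aa1 and Hist2h2aa2, neighbouring genes on chromosome 3 for the same H2A protein family, shared 89.6% and 100% of their stretches with each other, and at least as many with the annotated gene Gm20634. In male mice Hist2h2aa1 ranged from 0 to 15.7 CPM with a coefficient of variation of 49.4%, and Hist2h2aa2 from 2.07 to 13.5 CPM with 34.6%. Their sum ranged from 10.1 to 25.5 CPM with 21.5%, close to the 14.7% of Hist1h2bc and of Hist1h1c. In the 14 other females the coefficient of variation was 151% for Hist2h2aa1, 42% for Hist2h2aa2 and 22.9% for the sum.

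Hist2h3c1, an H3 gene, shared 100% of its stretches with Gm20634, which is not a member. In males Hist2h3c1 was below 0.5 CPM in 9 of 18 mice, and Gm20634 was below 0.5 CPM in the other 9. The coefficient of variation was 107% for Hist2h3c1, 102% for Gm20634 and 21.7% for their sum, which lay between 4.42 and 9.92 CPM. In both pairs the sum varied less between mice than either gene alone. Since Hist2h2aa1 and Hist2h2aa2 share stretches with Gm20634 too, the pairs are not separate. Whether counts moved between the copies or between the pairs was not tested. The values of each copy are given below as uncertain.

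**Figure D3:**
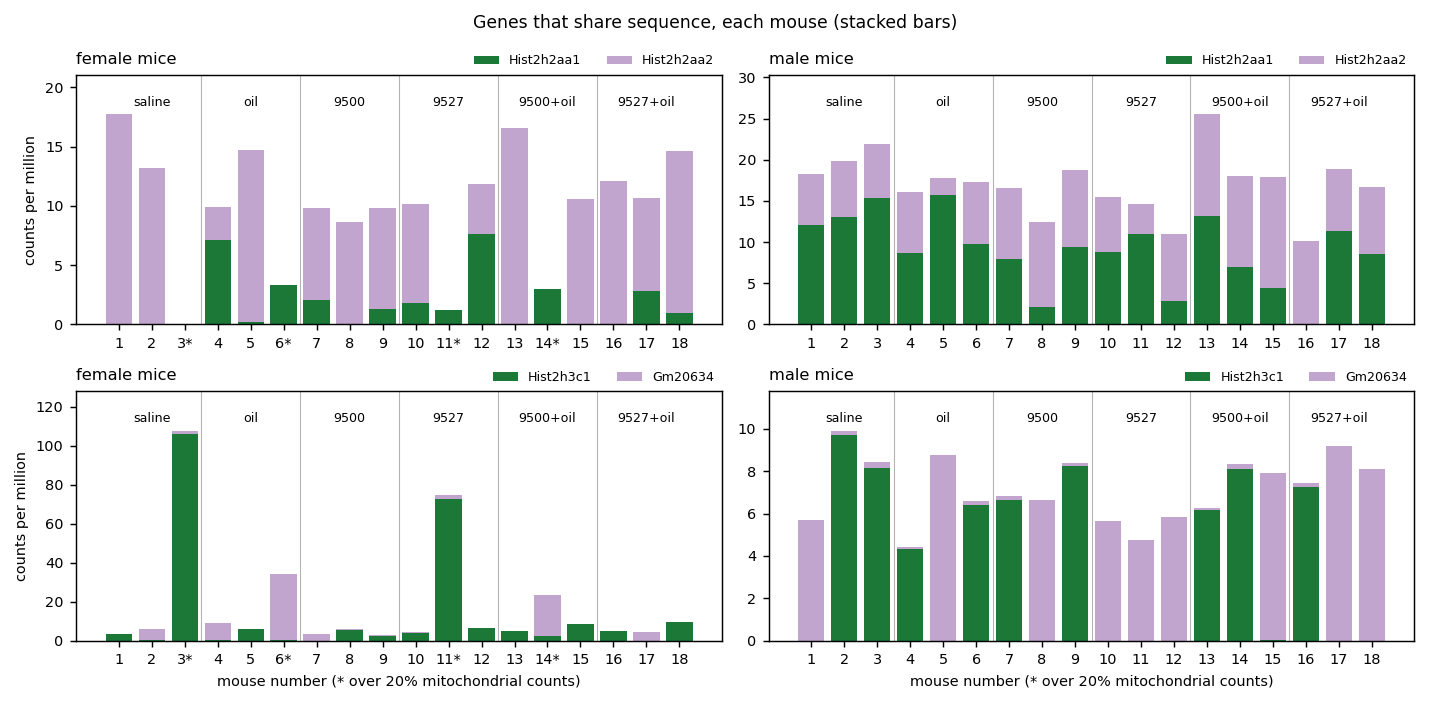
Stacked bars of CPM (y axis) for Hist2h2aa1 with Hist2h2aa2 and for Hist2h3c1 with Gm20634 in each mouse (x axis), with mouse numbers marked by an asterisk where over 20% of counts were mitochondrial. In males the 2 colours of the lower panel exchange places from mouse to mouse while the height of the bar stays between 4.42 and 9.92.

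No member passed an adjusted p of 0.05 in any of the 22 comparisons with the edgeR quasi-likelihood test and Benjamini-Hochberg adjustment over all genes tested. Across the 6 groups there were 0 of 21 members called in females, where 0.0129% of all genes were called, and 0 of 20 in males, where 0.135% were. At an unadjusted p of 0.05 the counts were 0 in females, where 1.35% of all genes passed that level, and 3 in males, where 10.4% did. Those in males were Hist1h2bc, Hist1h2be and Hist2h2aa2, with edgeR adjusted p from 0.3695 to 0.4188. The DESeq2 likelihood ratio test called 0 members in either sex, in fits that called 48 genes in females and 612 in males.

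After Corexit 9527 the males had the 3 lowest histone sums of the 18 males. The members in the male table together reached 143, 174 and 160 CPM in the 3 saline males and 123, 104 and 120 CPM in the 3 males given Corexit 9527, and these groups did not overlap. Of 14 members tested, 13 were lower after Corexit 9527, and the median log2 fold change was -0.36 beside -0.01 over all 14919 genes tested. The size of this median depends on single mice, at -0.57 without saline mouse 1 and -0.23 without treated mouse 11, the extremes of leaving out 1 mouse. No member was called, with 0.114% of all genes called. At an unadjusted p of 0.05 there were 4, all lower, against 13.7% of all genes in either direction and 5.78% of all genes lower.

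Hist1h2bc was 52.7, 63.8 and 56.6 CPM in the saline males and 42.6, 41.5 and 43.3 CPM after Corexit 9527. Every treated male lay below every saline male, and the means were 57.7 ± 5.66 and 42.4 ± 0.905 CPM (SD, n = 3 each). The log2 fold change was -0.44 ± 0.10 (SE) with an edgeR adjusted p of 0.1313. Here the tools differed: DESeq2's Wald test, the tool the study used, called Hist1h2bc with an adjusted p of 0.01986, in a fit that called 594 genes where edgeR called 17.

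Hist1h2be, another H2B gene, was 4.87, 4.2 and 4.16 CPM after saline and 2.2, 1.95 and 2.79 CPM after Corexit 9527. These groups did not overlap either, and the log2 fold change was -0.93 ± 0.27 (edgeR adjusted p = 0.1816, DESeq2 adjusted p = 0.0788). Hist1h2be overlaps Hist1h1e on the same strand, and 10.5% of its stretches are shared with that gene. Hist1h4n, an H4 gene, was 2.29, 1.47 and 1.54 CPM after saline and 0.651, 1.22 and 0.569 CPM after Corexit 9527 (log2 fold change -1.11 ± 0.44, edgeR adjusted p = 0.3121). It rests on 11 to 46 counts a library and shares 85.2% of its stretches with Hist1h4m. Hist3h2a was 13.2, 19.2 and 18.5 CPM after saline and 13.4, 11.7 and 13.5 CPM after Corexit 9527, with overlapping groups (log2 fold change -0.40 ± 0.17, edgeR adjusted p = 0.3445).

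The linker histone gene Hist1h1c was 31.2, 31.7 and 24.2 CPM in saline males and 27.7, 18.6 and 30.5 CPM after Corexit 9527, so the groups overlapped. Hist2h2aa1 and Hist2h2aa2 summed to 18.2, 19.8 and 21.9 CPM after saline and to 15.5, 14.7 and 11 CPM after Corexit 9527. As 1 summed gene they gave a log2 fold change of -0.54 ± 0.16 (edgeR adjusted p = 0.1896). Hist2h3c1 had 0 counts in all 3 males given Corexit 9527, and 0, 185 and 181 counts in the saline males. It did not reach the minimum for testing in the fit of these 2 groups. Summed with Gm20634, the levels were 5.72, 9.92 and 8.44 CPM after saline and 5.66, 4.77 and 5.84 CPM after Corexit 9527 (log2 fold change -0.56 ± 0.24, edgeR adjusted p = 0.3466).

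Counting non-overlap over single genes, 4 of the 20 members tested across groups in males lay wholly below saline after Corexit 9527 (Hist1h2bc, Hist1h2be, Hist1h4n and Hist2h2aa1) and 0 wholly above, while 19.7% of all genes did not overlap in that comparison. In males the members' share was thus near that of all genes. In females 3 of 21 members did not overlap after Corexit 9527, against 4.03% of all genes: Hist2h2aa1 and the H2B gene Hist1h2bq lay above saline and Hist1h1e below. Hist1h2bq shares 98.3% of its stretches with Hist1h2br, and their sum overlapped, with 0.487, 0.96 and 0 CPM after saline and 0.595, 0.745 and 0.725 CPM after Corexit 9527. Markers of some cell types moved with the same contrast. The erythroid markers (7 of 8 in the table) summed to 7540 to 12500 CPM in saline males and 2720 to 6790 CPM after Corexit 9527. The 4 platelet markers summed to 42.9 to 48.7 against 17.4 to 28.3 CPM, the 6 endothelial markers to 4110 to 4620 against 3360 to 3530 CPM, the 3 club cell markers to 19600 to 24800 against 14800 to 18000 CPM, and the 7 macrophage markers to 788 to 990 against 1040 to 1890 CPM. Their part in the histone levels was not tested.

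**Figure D4:**
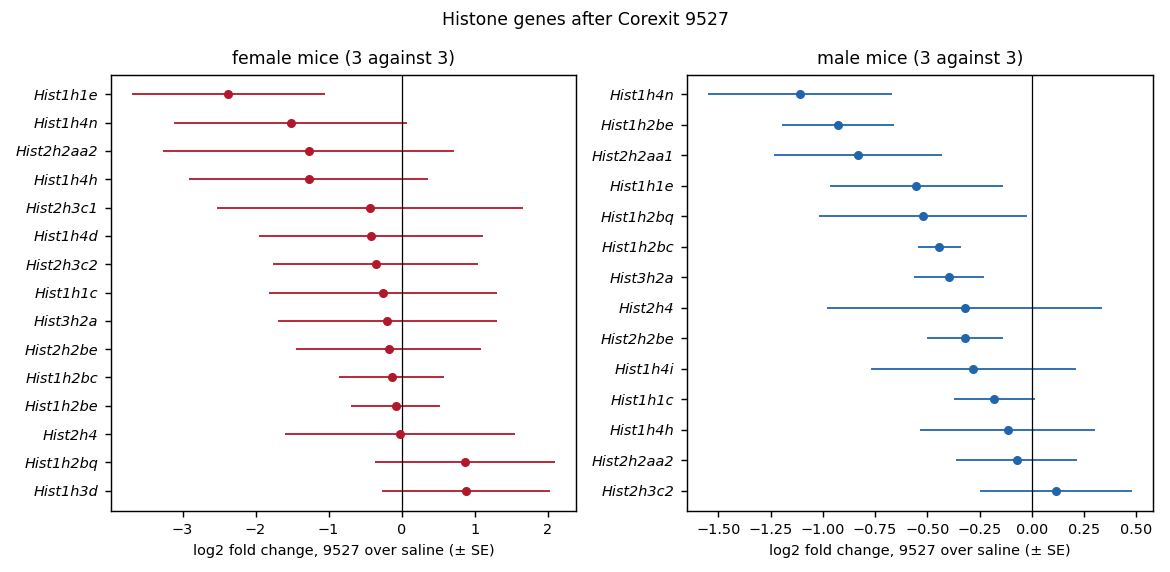
Log2 fold change of Corexit 9527 over saline with its standard error (x axis) for each member tested (y axis), in females on the left and males on the right, 3 mice against 3; Hist2h2aa1 in females is left out because its saline mice held 0 to 2 counts. In males 13 of 14 points lie left of 0, and in females the error bars are far wider.

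In females Corexit 9527 gave 13 of 16 members lower, with a median log2 fold change of -0.22 beside 0.03 over all genes. None was called, as was no other gene (0% of 15004). Hist1h2bc was 33.8, 33.7 and 103 CPM in the saline females and 24.8, 97.4 and 35.1 CPM after Corexit 9527, where the highest mouse of each group was a mitochondria-rich library. Without those libraries, and so with 1 female fewer in each group, 12 of 20 members were lower and the median was -0.27. With the mitochondrial share as a covariate 7 of 16 were lower and the median was 0.10, beside 0.12 over all genes. At an unadjusted p of 0.05, 1 member passed among 0.267% of all genes. This was Hist2h2aa1, with 0, 2 and 0 counts in the saline females and 60, 11 and 251 counts after Corexit 9527. In males the same gene lay below saline in all 3 mice. The interaction of sex and treatment gave it an unadjusted p of 0.00021, with an adjusted p of 1 in edgeR. DESeq2's Wald test called Hist2h2aa1 in females (adjusted p = 0.04846). The gene reached the minimum for testing in this female comparison only through the treated group, where it was high, and in none of the other 4, so neither its unadjusted p nor this call supports a difference. Summed with Hist2h2aa2, the saline females had 17.7, 13.1 and 0 CPM and those given Corexit 9527 had 10.2, 1.17 and 11.8 CPM, with overlapping groups, and the interaction of the sum gave an unadjusted p of 0.9366.

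Over both sexes together, with a term for sex, 15 of 18 members were lower after Corexit 9527, and the median was -0.32 beside 0.01 over all genes. No member was called (0.0326% of all genes were), and no member passed an unadjusted p of 0.05, which 2.86% of all genes did. The smallest p was that of Hist1h1e, a linker histone gene, with a log2 fold change of -1.42 ± 0.66, or -0.77 ± 0.32 without the mitochondria-rich libraries (edgeR adjusted p = 0.2685). Hist1h1e was 1.58, 1.12 and 4.1 CPM in saline females and 0.476, 0 and 0.785 CPM after Corexit 9527. In males it was 0.995, 1.47 and 1.54 CPM after saline and 0.901, 0.633 and 1.19 CPM after Corexit 9527, with overlap. Leaving out the mitochondria-rich libraries, 18 of 20 members were lower and the median was -0.44 beside -0.01 over all genes. That fit called 331 genes and still 0 members, and its lowest adjusted p among the members was 0.06608, for Hist1h4n.

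Genes of S phase and of mitosis went the other way after Corexit 9527. All 30 S phase genes, such as the replication clamp Pcna and the helicase subunits Mcm2 to Mcm7, were higher in males, with a median log2 fold change of 0.94. All 20 mitosis genes were higher too, with a median of 1.42. At an unadjusted p of 0.05, 25 of the 30 and 20 of the 20 were higher, against 7.96% of all genes, while 0 of either list was called by adjusted p in this comparison. In females the medians were 0.72 and 1.16, and 0.79 and 1.31 without the mitochondria-rich libraries. Over both sexes 0 genes of these lists were called, but without those libraries 19 of 30 S phase genes and 20 of 20 mitosis genes were, all higher. Across the 6 groups in males edgeR called Ccnb1 and Cdk1, which drive entry into mitosis. These lists were chosen with the direction known, so the counts describe them and are not independent evidence of it.

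For genes that act on histones or replace them the medians were nearer to 0. The 11 variant histone genes, which carry symbols other than Hist1h to Hist4h, had a median of 0.19 after Corexit 9527 in males, with 9 higher and 2 lower. For histone mRNA synthesis and end processing, which includes Slbp and the activator Npat, 17 genes were tested and 14 were higher, with a median of 0.12. That list also holds the cell cycle genes Cdk2, Ccne1, Ccne2 and E2f1, so it is not made up of processing factors alone. For histone chaperones, such as the assembly factors Chaf1a and Asf1b, 14 of 17 were higher with a median of 0.27. At an unadjusted p of 0.05, 4 of 11, 6 of 17 and 8 of 17 genes of these lists were higher and 0 lower, where 7.96% of all genes were higher. None of these 3 lists had a called gene in any comparison with saline.

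**Figure D5:**
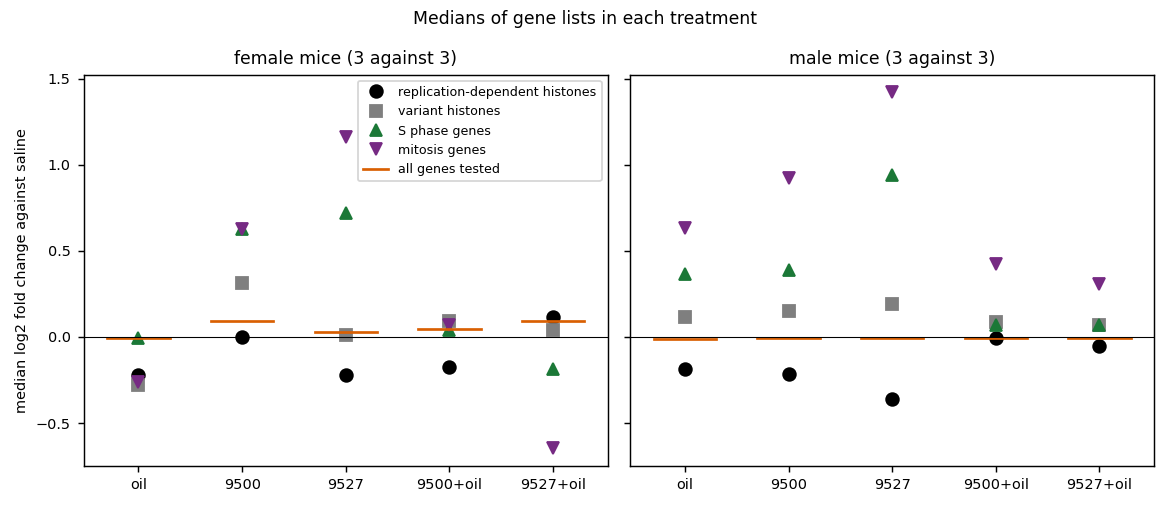
Median log2 fold change against saline (y axis) of the replication-dependent histones, variant histones, S phase genes and mitosis genes for each treatment (x axis), in females on the left and males on the right, with the median of all genes tested as an orange bar. After Corexit 9527 in males the histones lie at -0.36 while S phase genes lie at 0.94 and mitosis genes at 1.42.

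Corexit 9500 in males gave 16 of 20 members lower with a median of -0.22 beside -0.01 for all genes, and 0 called (0.00662% of all genes). At an unadjusted p of 0.05 there were 2 members, against 6.35% of all genes, and these were the copies Hist2h2aa2 (log2 fold change 0.54 ± 0.15) and Hist2h2aa1 (-1.05 ± 0.43), in opposite directions. Oil in males gave 15 of 18 lower with a median of -0.19 and 0 called (0.00671% of all genes). Among the least abundant of the named members, the H3 gene Hist2h3c2 was 1.49, 2.68 and 1.4 CPM in saline males and 1.1, 0.94 and 1.18 CPM after Corexit 9500, with the treated mice all below saline. Without overlap there were 5 of the 20 members tested across groups for Corexit 9500 in males, 4 below saline and 1 above, against 11.7% of all genes. These were Hist1h2be, Hist2h2aa1, Hist2h2aa2, Hist2h3c2 and Hist2h4. The H4 gene Hist1h4i was 0.597, 0.577 and 0.542 CPM in saline males and 0.915, 0.67 and 1.12 CPM after oil, with the treated mice all above saline. Hist1h4n was 1.42, 0.837 and 1.22 CPM after oil, all below saline. These were the 2 of 20 members without overlap after oil, against 12.7% of all genes. Neither Hist2h3c2 nor Hist1h4i passed an unadjusted p of 0.05 in these comparisons, and both share sequence with other members. For Corexit 9500 and oil in males the S phase medians were 0.39 for Corexit 9500 and 0.37 for oil.

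With 9500+oil the male members were evenly split, 8 higher and 9 lower, with a median of -0.01 and 0 called (0% of all genes). Hist2h2aa2 was 6.12, 6.82 and 6.5 CPM in saline males and 12.3, 11 and 13.5 CPM after 9500+oil, with all 3 treated mice above the saline range. It was among 4 of 20 members without overlap in that comparison (1 above and 3 below), where 15.3% of all genes did not overlap. It had the smallest unadjusted p of any member against saline (0.0001437), where 9.22% of all genes passed an unadjusted 0.05, and an edgeR adjusted p of 0.506. DESeq2's Wald test called it (adjusted p = 0.004134). Its copy Hist2h2aa1 was 12.1, 13 and 15.4 CPM after saline and 13.2, 7.02 and 4.38 CPM after 9500+oil. The sum was 18.2, 19.8 and 21.9 CPM after saline and 25.5, 18 and 17.9 CPM after 9500+oil, with a log2 fold change of 0.03 ± 0.16 and overlapping groups. The difference seen in Hist2h2aa2 was not present in the summed level. Hist1h2be was 3.3, 2.73 and 3.33 CPM after 9500+oil, below all saline males (log2 fold change -0.50 ± 0.22, edgeR adjusted p = 0.5364).

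With 9527+oil the male members had a median of -0.05, with 5 higher and 11 lower and 0 called (0.00669% of all genes). Leaving out 1 mouse at a time, the male median ranged from -0.20 to 0.03 for 9527+oil and from -0.13 to 0.08 for 9500+oil, so neither has a stable sign. Hist1h2bc was 42.3, 54.2 and 54.9 CPM, overlapping with saline. Hist1h2be was 2.52, 4.73 and 5.36 CPM, also overlapping. Without overlap were 2 of 20 members, against 11.7% of all genes, and these were the copies Hist2h2aa2 (above saline at 10.1, 7.54 and 8.14 CPM, edgeR adjusted p = 0.8846) and Hist2h2aa1 (below saline at 0, 11.3 and 8.53 CPM). In females the medians were 0.12 for 9527+oil, -0.22 for oil, 0.00 for Corexit 9500 and -0.18 for 9500+oil, and no gene at all was called in any of these 4 comparisons, nor did any member pass an unadjusted p of 0.05. Without the mitochondria-rich libraries these medians were -0.21, -0.06, 0.16 and -0.03, so that the signs of these medians depend on the libraries used: leaving out 1 mouse at a time they ranged from -0.21 to 0.47, from -0.20 to 0.15, from -0.14 to 0.47 and from -0.39 to 0.16. With the mitochondrial share as a covariate they were -0.01, 0.01, 0.68 and 0.34. The shares of all genes at an unadjusted p of 0.05 were 1.1%, 0.108%, 0.364% and 0.155%. DESeq2's Wald test called 0 members and 7, 0, 2 and 0 genes, and gave no p for Hist2h2be in any of them or for Hist2h3c1 in all but 9527+oil. Over both sexes the 4 medians of oil, Corexit 9500, 9500+oil and 9527+oil lay between -0.12 and 0.04, with 0 members and 0 genes called. Without the mitochondria-rich libraries they were -0.14, -0.08, -0.05 and -0.09, and with the mitochondrial share as a covariate 0.00, 0.10, 0.12 and 0.05. The signs for Corexit 9500, 9500+oil and 9527+oil thus depend on the setting. That for oil stayed below 0 in every alternative, at -0.002 at the highest.

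No member lay on the same side of saline in every treated mouse of both sexes under any treatment. The count was 0 of 19 members tested in both sexes for each treatment, where 0.164% of all genes did so for oil, 1.02% for Corexit 9500, 1.11% for Corexit 9527, 0.0983% for 9500+oil and 1.5% for 9527+oil. The interaction of sex and treatment called 0 members and 0 genes for each of the 5 treatments, and 1 member passed an unadjusted p of 0.05 in each, Hist2h2aa1 in every case, where 1.65% of all genes did so for oil, 0.726% for Corexit 9500, 0.352% for Corexit 9527, 0.509% for 9500+oil and 2.39% for 9527+oil. All 5 rest on the same saline females, with 0, 2 and 0 counts in a copy whose single level is uncertain. Without the mitochondria-rich libraries Hist2h2aa1 passed that level in 4 of the 5 and not for 9500+oil. In the remaining female members, Hist4h4 (H4) was 6.36 CPM in 1 mouse given Corexit 9500 and 0 to 1.1 CPM in the other 17, and Hist1h3d (H3) ranged from 0 to 1.6 CPM. The absence of calls in females says little, since no gene was called in any of the 5 female comparisons with saline. In males it says little too, since edgeR called 17 genes for Corexit 9527 and 0 or 1 for each other treatment.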

How the data were processed

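RNA of the left lung of 36 mice was sequenced (poly(A)-selected, stranded, paired-end) and, per the labels and methods, quantified by the authors with Salmon on GRCm38 cDNA and combined with tximport. The methods describe a transcript matrix, while the files are listed by gene symbol, and how transcripts were combined is not given in the sources used here. The deposited values are the authors' estimated counts per gene, whole numbers in the files, with the sexes tabulated apart and row sums of at least 10. In each sex 4 rows that share a name were left out (0.0103% and 0.0128% of counts). Of the names, 24 per sex read as dates.

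Counts were analysed with edgeR 4.0.16 in R 4.3.3: filterByExpr, TMM scaling and the quasi-likelihood F-test, with Benjamini-Hochberg adjustment over all genes tested and calls at an adjusted p of 0.05. Each treatment was compared with saline within a sex, over both sexes with a sex term and as a sex-by-treatment interaction, and all 6 groups were compared within a sex. DESeq2 1.42.0 was an alternative. The labels give separate mice as replicates. CPM use TMM-adjusted library sizes. The procedure was tested on simulated data. Named members were the 8 with the highest mean CPM, called members and the 3 with the smallest p in each comparison with saline and across the 6 groups, and any not overlapping with saline in both sexes, of which there was none. Members named outside this rule were picked with their values in view. The members and lists were chosen with earlier results of these data known, and the sums of genes sharing sequence and the S phase and mitosis medians without mitochondria-rich libraries were added after the data were examined. Stem-loops and shared 31-base stretches came from GENCODE M21 transcripts.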

Additional observations from a re-analysis of the deposited data

How the results depend on the processing

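Of 286 counts of called members under the alternatives, 282 were 0. The other 4 were 1 each. DESeq2's Wald test called 1 member for Corexit 9527 in females (Hist2h2aa1), 1 for Corexit 9527 in males (Hist1h2bc) and 1 for 9500+oil in males (Hist2h2aa2). Leaving out 1 mouse at a time for Corexit 9527 in males gave 0 to 1 called members, the 1 being Hist2h3c1 without saline mouse 1. In the fit of these 2 groups that gene (0, 185 and 181 counts after saline, 0 in all 3 treated) enters once the saline mouse at 0 is dropped, so this call supports nothing. In the joint fit of all 6 groups, with every mouse kept, its adjusted p was 0.2187. Nor does that of Hist2h2aa1, which was tested through the treated group alone. The lowest adjusted p of any member for Corexit 9527 in males was 0.074 with all 6 groups in a joint fit and 0.15 with no filter on low counts. The cause of these differences was not tested.

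Counts of all genes called moved more. For Corexit 9527 in males they were 17 with edgeR, 594 with DESeq2, 284 with all 6 groups in a joint fit, 70 with no filter and 0 to 211 leaving out 1 mouse. For Corexit 9527 over both sexes they were 5, and 331 without the mitochondria-rich libraries. Across the 6 groups they were 2 with edgeR and 48 with DESeq2 in females, and 21 and 612 in males. The median of the members for Corexit 9527 stayed below 0 in 6 of 6 fits leaving out 1 male (-0.57 to -0.23), 6 of 6 in females (-0.32 to -0.03) and 12 of 12 over both sexes (-0.45 to -0.23). This was not particular to Corexit 9527: it was also below 0 in 6 of 6 for oil and for Corexit 9500 in males, and in 12 of 12 over both sexes for oil, Corexit 9500 and 9500+oil. With the mitochondrial share as a covariate the medians over both sexes for Corexit 9500 and 9500+oil turned to 0.10 and 0.12, and with no filter that for oil was -0.26. DESeq2 gave no p for Hist2h2be and Hist2h3c1 in the female comparison of Corexit 9527. Females in this series limit what can be read, as 4 of their 18 libraries were rich in mitochondrial counts. No paired analysis was possible because the groups compared share no mouse numbers.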
